A study of Homo sapiens with 12 samples.

Results

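Cal27, an established human line, was derived from a tongue squamous carcinoma, and the libraries described here ask which genes stiff conditioning and inhibition of focal adhesion kinase (FAK) move alike. The 6 stiff-to-soft and LPA-to-FAKi libraries were set against the 6 soft-to-soft and LPA-to-soft libraries, 12 libraries in all, with replicate number as a block. The libraries were grouped by their labels, with earlier results of these data known. Stiff-to-soft cells had 5 days of conditioning on a 20 kPa gel and 1 day after replating on a 0.48 kPa gel. LPA-to-FAKi cells were conditioned on the 0.48 kPa gel with lysophosphatidic acid (LPA), a signalling lipid with receptors at the cell surface, and replated on the same soft gel with a FAK inhibitor. Soft-to-soft cells stayed on the 0.48 kPa gel without treatment. LPA-to-soft cells had the LPA conditioning and were replated without the inhibitor. All cells were labelled wild type and grew on collagen-coated polyacrylamide gels. The series design counts stiff-to-soft and LPA-to-soft cells as having acquired a memory of their conditioning, and soft-to-soft and LPA-to-FAKi cells as not having it. Each side of the present comparison therefore holds 1 condition of each memory class. The inhibitor is not named in the labels, no library had it without LPA, and 1 cell line stands for all conditions. The labels do not say whether replicates were separate cultures, so the spread that p-values measure here may be technical.

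FAK, encoded by PTK2, is a tyrosine kinase that sits at integrin adhesions and passes on signals from matrix contact. Cells on stiff matrix build larger adhesions and more contractile fibres than cells on soft matrix, and these signals reach the nucleus through the coactivators YAP and TAZ, through serum response factor and through the ERK kinases. Squamous epithelium is kept by basal cells that express TP63, KRT5 and KRT15, and it matures into layers marked by other keratins and by cornified envelope proteins.

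Total counts ran from 62953957 to 122311183 per library, and mitochondrially encoded genes held 4.31% to 8.22% of them. Of counts from 1 to 19, 96.8% to 97.8% were even in 10 libraries. In replicates 1 and 2 of the soft-to-soft condition the share was 42.9% and 42.2%, so their low counts followed another pattern. The FAK comparison (LPA-to-FAKi minus LPA-to-soft) contrasts neither of them, but its p-values rest on a spread estimated over all 12 libraries. All 8 squamous markers were detected (KRT5 averaged 4297 CPM over the 12 libraries), and their summed level was 4555 to 7895 CPM in stiff-to-soft and LPA-to-FAKi libraries, against 5439 to 9844 in soft-to-soft and LPA-to-soft libraries. Of the fibroblast, leukocyte and endothelial markers, 4 of 10, 4 of 10 and 3 of 8 passed the low-count filter, and the markers POSTN, CD3E and MS4A1 had no count at all. The summed levels of these lists were 15.8 to 28.6, 16.4 to 52.0 and 8.66 to 39.1 CPM in stiff-to-soft and LPA-to-FAKi libraries, against 14.6 to 37.3, 14.7 to 23.2 and 13.8 to 24.6 in soft-to-soft and LPA-to-soft libraries, and their part in the results was not tested. PTK2 measured 50.4, 52.5 and 55.5 CPM in stiff-to-soft and 44.8, 46.4 and 50.1 CPM in LPA-to-FAKi libraries, against 46.9, 46.2 and 56.0 CPM in soft-to-soft and 49.2, 51.4 and 53.7 CPM in LPA-to-soft libraries. Its log2 fold change over the 2 sides was -0.016 ± 0.053 (edgeR adjusted p = 0.907), with 0.091 ± 0.06 in the stiff comparison (adjusted p = 0.691) and -0.13 ± 0.059 in the FAK comparison (adjusted p = 0.234). In the FAK comparison it was lower in 3 of 3 pairs of the same number, and neither comparison passed the test.

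Levels are in CPM (a gene's count scaled to a common library total) after trimmed-mean (TMM) scaling, and compare libraries for 1 gene, never genes with each other. The log2 fold changes are edgeR estimates ± SE, positive where stiff-to-soft and LPA-to-FAKi cells were higher. In the model of 2 sides with replicate number as a block, 0 of 15437 genes (0%) passed an adjusted p of 0.05 by edgeR's quasi-likelihood test. The smallest adjusted p was 0.0603, shared by 3 genes, EGR3, BIN1 and CSF2, and 2531 genes (16.4%) had an unadjusted p under 0.05, 1307 of them higher and 1224 lower. With the same 2 sides, DESeq2 called 551 genes and limma voom 0. That model puts any difference between the 2 conditions of a side into its error. A second fit, of the 4 conditions, averages the stiff and the FAK comparison, and it called 118 genes. Of the tested genes, 39 (0.253%) were called higher and 79 (0.512%) lower. Below, "called" means called by this 4-condition contrast unless another test is named. These calls are fragile. Leaving out 1 library at a time gave between 1 call (without soft-to-soft replicate 3) and 519 (without soft-to-soft replicate 2), with 2 without stiff-to-soft replicate 3, the fit without the replicate block called 0, and a fit that left out the pair of soft-to-soft libraries with the other pattern of low counts (replicates 1 and 2) also called 0. Each of the 118 kept its sign and an unadjusted p under 0.05 in all 12 of these fits, and its sign without both of those libraries. Without the block 118 kept their sign and 44 had that p. The 118 were picked from these same libraries, most of which stay in each fit. A kept sign is therefore largely fixed by the selection, and the direction was not tested independently.

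Of the 118 genes, 116 had one sign in both comparisons, 39 above 0 and 77 below, and the exceptions were KLF5 and TMPRSS11D. The comparisons contrast different libraries, but they come from the same fit and share its estimate of the spread. For 88 of the 118 genes both comparisons had an unadjusted p under 0.05. The contrast averages the 2 comparisons, so a shared sign is in part what it selects, and the median size of the 118 log2 fold changes was 0.55 for stiff conditioning and 0.35 for FAK inhibition. With libraries of the same replicate number set against each other, 31 of the 39 were higher in 6 of 6 differences and 61 of the 79 were lower in 6 of 6, against 4.03% and 4.3% of all tested genes. The blocked contrast averages these same differences, so their agreement is also in part what it selects. In 0 of the 118 genes did the 6 libraries of one side lie apart from the 6 of the other when numbers were ignored, which held for 0.143% of all genes tested.

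Taken alone, stiff-to-soft minus soft-to-soft called 90 genes (0.583%) and LPA-to-FAKi minus LPA-to-soft called 0 (0%; smallest adjusted p 0.0752, and 3439 genes at an unadjusted p under 0.05, against 1580 for the stiff comparison). DESeq2 called 456 and 1231 genes in the 2 comparisons, and limma voom 119 and 37. Without soft-to-soft replicate 2 the FAK comparison called 639 genes, and without LPA-to-FAKi replicate 3 it called 62. It contrasts no soft-to-soft library, but its p-values rest on a block and a spread estimated over all 12 libraries. Leaving out 1 library took the 90 of the stiff comparison to between 7 (without stiff-to-soft replicate 3) and 228 (without LPA-to-FAKi replicate 1). Without both soft-to-soft replicates 1 and 2, with 1 soft-to-soft library left, which is assumed to vary like the others, the stiff comparison called 0 genes and the FAK comparison 202. By edgeR 0 genes were called in both, by DESeq2 51 with one sign and by limma voom 4. At an unadjusted p under 0.05 in both, 107 genes were higher in both, 179 were lower in both and 169 went opposite ways. Over all 15437 genes the 2 sets of log2 fold changes had a Pearson r of 0.0747 and a Spearman rho of 0.106, and 55.3% of genes had one sign in both. These values are across genes, which are not independent replicates and share their libraries.

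**Figure D1:**
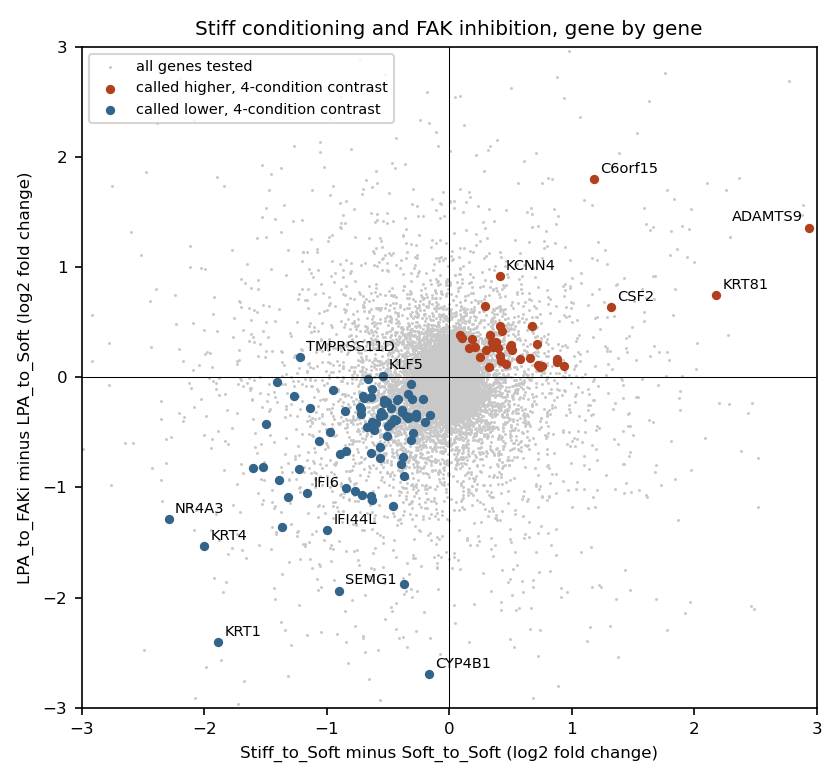
Log2 fold change of stiff-to-soft minus soft-to-soft (x axis) against LPA-to-FAKi minus LPA-to-soft (y axis) for each tested gene. Grey points are all genes tested, of which 46 lie outside the axes, red points are the 39 genes called higher and blue points the 79 called lower by the 4-condition contrast. Grey points spread over all 4 quadrants, and the called genes lie in the quadrants of shared sign, except KLF5 and TMPRSS11D, just above the line at 0.

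Among genes called higher, CSF2, which encodes the cytokine GM-CSF, had the smallest adjusted p. It measured 26.2, 68.3 and 30.3 CPM in stiff-to-soft and 30.3, 58.7 and 21.4 CPM in LPA-to-FAKi libraries, against 11.5, 23.5 and 12.8 CPM in soft-to-soft and 17.6, 36.0 and 16.4 CPM in LPA-to-soft libraries. Replicate 2 was high in every condition, so the sides overlapped, but within each number both comparisons were higher. The log2 fold change was 0.98 ± 0.088 (adjusted p = 0.00362), the average of 1.32 ± 0.13 for stiff conditioning and 0.64 ± 0.12 for FAK inhibition. In bulk RNA, for this as for every gene described, a change in the number of expressing cells and a change in RNA per cell cannot be told apart. Of the 37 tested NF-kB and cytokine genes CSF2 was the 1 called higher, and 0 were called lower, beside 0.253% and 0.512% of all genes. The list's median log2 fold change was 0.25 in the stiff comparison and -0.45 in the FAK comparison, so its members as a group did not share a direction.

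BIN1, an adaptor that bends membranes, measured 33.7, 70.4 and 58.1 CPM in stiff-to-soft and 34.0, 59.0 and 52.3 CPM in LPA-to-FAKi libraries, against 23.2, 49.0 and 42.2 CPM in soft-to-soft and 24.2, 53.1 and 44.5 CPM in LPA-to-soft libraries. Replicate 1 was low in every condition, and both comparisons were higher within each number. Its log2 fold change was 0.40 ± 0.051 (adjusted p = 0.0147). ADAM8, a membrane metalloprotease, measured 84.2, 162 and 89.3 CPM in stiff-to-soft and 113, 217 and 85.8 CPM in LPA-to-FAKi libraries, against 65.9, 159.9 and 62.7 CPM in soft-to-soft and 67.5, 129.9 and 62.7 CPM in LPA-to-soft libraries. It was one of the called genes with a larger estimate under FAK inhibition (0.65 ± 0.10) than under stiff conditioning (0.29 ± 0.10), and its contrast was 0.47 ± 0.071 (adjusted p = 0.0219). KRT81, a hair keratin, measured 2.31, 18.5 and 7.98 CPM in stiff-to-soft and 2.06, 6.07 and 4.81 CPM in LPA-to-FAKi libraries, against 0.857, 1.94 and 2.41 CPM in soft-to-soft and 0.909, 4.36 and 3.14 CPM in LPA-to-soft libraries. The stiff-to-soft replicate 2 library was the highest. The contrast was 1.46 ± 0.20 (adjusted p = 0.0172), the average of 2.18 ± 0.30 for stiff conditioning and 0.74 ± 0.28 for FAK inhibition.

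Smaller differences were found for metabolic and signalling genes. NMB, the peptide neuromedin B, had 19.9 to 36.2 CPM in stiff-to-soft and LPA-to-FAKi libraries, against 14.6 to 26.3 CPM in soft-to-soft and LPA-to-soft libraries (contrast 0.51 ± 0.063, adjusted p = 0.0147), with 0.71 ± 0.089 in the stiff and 0.30 ± 0.088 in the FAK comparison. The aldose reductase AKR1B1 was called higher by 0.32 ± 0.051 and the cytidine deaminase CDA by 0.42 ± 0.076. MAP2K3, which activates the p38 kinases, was called higher by 0.24 ± 0.047, CDC42EP1, an effector of the GTPase CDC42, by 0.33 ± 0.061, UNC5A, a netrin receptor, by 0.36 ± 0.068, and SLC12A7, a potassium-chloride cotransporter, by 0.31 ± 0.046 (0.42 ± 0.065 in the stiff and 0.20 ± 0.065 in the FAK comparison). KIF3C, a kinesin motor, and PAX8, a transcription factor, were called higher by 0.35 ± 0.048 and 0.44 ± 0.087. All of these were higher in 6 of 6 within-number differences. The largest contrasts belonged to genes of low level: ADAMTS9, a secreted metalloprotease, had 0.534 to 5.54 CPM in stiff-to-soft and LPA-to-FAKi libraries, against 0.164 to 1.05 CPM in soft-to-soft and LPA-to-soft libraries and a contrast of 2.15 ± 0.39, and C6orf15 had 0.524 to 2.21 CPM in stiff-to-soft and LPA-to-FAKi libraries, against 0.273 to 0.652 CPM in soft-to-soft and LPA-to-soft libraries and a contrast of 1.49 ± 0.28. KCNN4, a calcium-activated potassium channel, had 9.88 to 22.6 CPM in stiff-to-soft and LPA-to-FAKi libraries, against 6.79 to 13.97 CPM in soft-to-soft and LPA-to-soft libraries, with 0.41 ± 0.18 under stiff conditioning and 0.92 ± 0.18 under FAK inhibition.

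**Figure D2:**
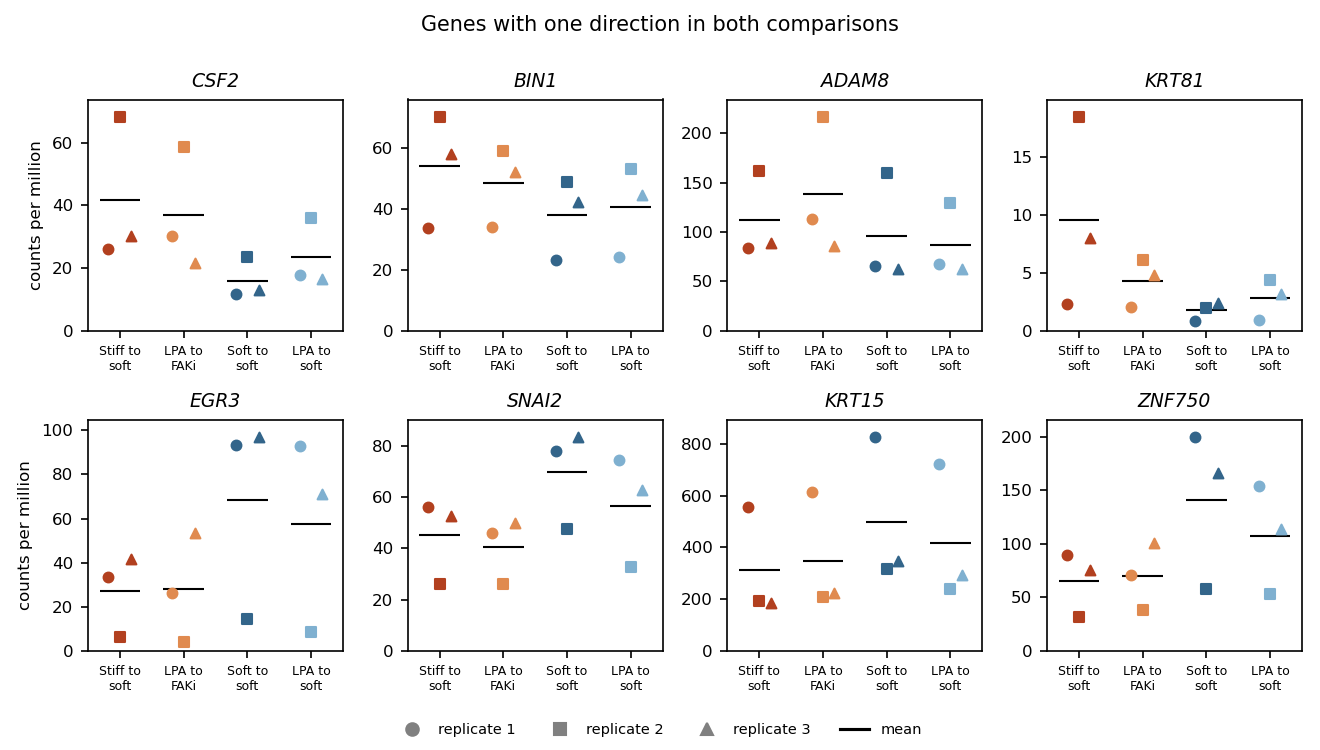
Level in CPM (y axis, from 0) of 4 genes called higher (top row) and 4 called lower (bottom row) in the 12 libraries, by condition. Marker shape gives the replicate number and bars are means of 3 libraries. CSF2 averages 41.6 and 36.8 CPM in stiff-to-soft and LPA-to-FAKi cells, against 15.9 and 23.3 CPM in soft-to-soft and LPA-to-soft cells. In each condition replicate 2 is the highest for CSF2 and the lowest for EGR3.

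The interferon response and the immediate early genes were the lists with the most called members, 11 each. Interferons bind surface receptors, and the signal reaches the nucleus in a complex with IRF9 that binds response elements in the promoters of antiviral genes. Of 50 genes listed, 50 were tested, 49 had a log2 fold change below 0 over the 2 sides, and 46 were below 0 in both comparisons. The list's median was -0.38, beside -0.0017 for all genes, of which 50.5% were below 0. Its median was -0.31 in the stiff comparison and -0.49 in the FAK comparison. The contrast called 11 members lower and 0 higher, beside 0.512% of all genes called lower. In the model of 2 sides 39 members were lower at an unadjusted p under 0.05, beside 1224 of all 15437 genes. Leaving out 1 library took the 11 to between 0 (without replicate 3 of the stiff-to-soft, soft-to-soft or LPA-to-soft condition, or LPA-to-soft replicate 1) and 35 (without soft-to-soft replicate 2), while 48 to 50 members were below 0 in every such fit. The list average was 5.61, 5.29 and 6.32 log2 CPM in stiff-to-soft and 5.00, 5.22 and 6.08 log2 CPM in LPA-to-FAKi libraries, against 5.85, 5.34 and 6.93 log2 CPM in soft-to-soft and 5.80, 5.45 and 6.71 log2 CPM in LPA-to-soft libraries. Replicate 3 was highest in every condition, and within each number stiff-to-soft lay below soft-to-soft and LPA-to-FAKi below LPA-to-soft.

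IFI6, which interferon induces and which inhibits apoptosis, measured 107, 23.0 and 192 CPM in stiff-to-soft and 47.4, 25.4 and 161 CPM in LPA-to-FAKi libraries, against 152, 73.6 and 483 CPM in soft-to-soft and 151, 35.3 and 327 CPM in LPA-to-soft libraries. Its contrast was -1.11 ± 0.15 (adjusted p = 0.0172), with -1.16 ± 0.22 and -1.05 ± 0.22 in the stiff and FAK comparisons. IFI44L measured 20.8, 4.53 and 45.8 CPM in stiff-to-soft and 6.39, 4.81 and 36.2 CPM in LPA-to-FAKi libraries, against 30.5, 10.03 and 119 CPM in soft-to-soft and 29.1, 8.2 and 92.8 CPM in LPA-to-soft libraries. The LPA-to-FAKi replicate 1 library stood lowest relative to its partner, and the contrast was -1.19 ± 0.18 (adjusted p = 0.0219). IFIT1, which binds viral RNA caps, measured 37.7, 31.4 and 96.1 CPM in stiff-to-soft and 14.7, 26.3 and 73.6 CPM in LPA-to-FAKi libraries, against 50.4, 45.2 and 190.0 CPM in soft-to-soft and 45.2, 37.9 and 167 CPM in LPA-to-soft libraries and had a contrast of -0.85 ± 0.13 (adjusted p = 0.026). The other called members were IFI44 (-0.47 ± 0.075), IFIT2, a relative of IFIT1 (-0.63 ± 0.10), the radical enzyme RSAD2, or viperin (-0.87 ± 0.17), its neighbour CMPK2, a nucleotide kinase (-0.59 ± 0.12), OAS2, which makes oligoadenylates on double-stranded RNA (-0.55 ± 0.11), IFI27 (-0.44 ± 0.086), EPSTI1 (-0.81 ± 0.13) and IRF9, the DNA-binding subunit of the interferon-activated complex (-0.44 ± 0.078). HELZ2, a helicase that the list did not hold, was called lower by -0.30 ± 0.057. The neighbouring list of 17 genes of MHC class I presentation had 14 members below 0, a median of -0.068, 0 called by edgeR, DESeq2 or limma voom and 1 higher and 1 lower at an unadjusted p under 0.05. B2M, the shared light chain of class I molecules, had 943 to 1329 CPM in stiff-to-soft and LPA-to-FAKi libraries, against 969.9 to 1589 CPM in soft-to-soft and LPA-to-soft libraries and a contrast of -0.19 ± 0.076 (adjusted p = 0.213).

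To show the response elements in the genes that were called, promoters were taken from RefSeq on GRCh38.p14, from 250 bases before to 50 after the gene start, in the direction of the gene. The core searched was GAAANNGAAA on both strands, one of 3 motifs searched after the results were known. It was found in 1255 of all 35116 promoters (3.57%), in 332 of the 10924 promoters matched to tested genes (3.04%) and in 26 of the 39 matched to listed interferon genes (66.7%). Of the called members 9 matched a promoter and 6 held the core. The promoters of 3 of them follow, with matches in capitals, which read TTTCNNTTTC where the core lies on the opposite strand.
IFI6 (chr1:27672143-27672442, minus strand): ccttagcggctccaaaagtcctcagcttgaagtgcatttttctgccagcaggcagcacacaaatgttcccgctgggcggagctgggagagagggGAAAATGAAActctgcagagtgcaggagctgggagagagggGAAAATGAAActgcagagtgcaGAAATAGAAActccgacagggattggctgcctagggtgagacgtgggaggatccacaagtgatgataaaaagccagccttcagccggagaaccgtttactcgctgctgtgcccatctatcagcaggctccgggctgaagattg
IFI44L (chr1:78620198-78620497, plus strand): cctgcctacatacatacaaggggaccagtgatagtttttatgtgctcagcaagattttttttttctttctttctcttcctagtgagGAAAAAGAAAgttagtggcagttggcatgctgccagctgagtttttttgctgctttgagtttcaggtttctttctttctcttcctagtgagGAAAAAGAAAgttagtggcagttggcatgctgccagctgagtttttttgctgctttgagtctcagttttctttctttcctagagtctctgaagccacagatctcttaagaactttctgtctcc
IFIT1 (chr10:89392373-89392672, plus strand): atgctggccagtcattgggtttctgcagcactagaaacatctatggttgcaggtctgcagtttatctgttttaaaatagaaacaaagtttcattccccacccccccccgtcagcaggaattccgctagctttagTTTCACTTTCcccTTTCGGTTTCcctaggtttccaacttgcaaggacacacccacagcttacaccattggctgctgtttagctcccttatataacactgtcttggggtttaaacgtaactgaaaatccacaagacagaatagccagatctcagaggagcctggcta
IFI6 held the core at 3 positions, starting 156, 115 and 93 bases before the gene start. IFIT1 held it at 2 positions on the opposite strand, and IFI44L at 2 positions, starting 164 and 73 bases before the gene start. Of promoters of genes called, 0 of 30 called higher and 7 of 60 called lower (11.7%) held the core, and 6 of the 7 were the interferon members counted above. A match is a run of letters and was not tested for binding.

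Immediate early genes, which cells switch on within minutes of a growth factor or mechanical signal, shared a direction too. Of 37 tested, 34 were below 0 over the 2 sides, beside 50.5% of all genes. In both comparisons 27 were below 0 and 0 were above 0, where 55.3% of all genes had one sign, in either direction. The median was -0.28, with -0.44 for stiff conditioning and -0.18 for FAK inhibition, and 11 were called lower and 0 higher, beside 0.512% of all genes called lower. Leaving out 1 library took the 11 to between 0 (without replicate 3 of the stiff-to-soft or soft-to-soft condition) and 14 (without soft-to-soft replicate 2), while 33 to 36 members were below 0. EGR3, a zinc finger factor of the early growth response family, measured 33.6, 6.11 and 41.5 CPM in stiff-to-soft and 26.4, 4.01 and 53.5 CPM in LPA-to-FAKi libraries, against 93.2, 14.6 and 97.0 CPM in soft-to-soft and 93.0, 8.47 and 71.1 CPM in LPA-to-soft libraries. Replicate 2 was low in every condition, and the contrast was -1.20 ± 0.16 (adjusted p = 0.0157). Its relative EGR1 measured 626, 341 and 1029 CPM in stiff-to-soft and 621, 399.9 and 1281 CPM in LPA-to-FAKi libraries, against 1093, 536 and 1674 CPM in soft-to-soft and 1163, 429 and 1270.0 CPM in LPA-to-soft libraries, with a contrast of -0.53 ± 0.10 (adjusted p = 0.0417).

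The 3 orphan nuclear receptors of the NR4A family were all called lower. NR4A1 measured 56.7, 13.05 and 71.6 CPM in stiff-to-soft and 35.0, 14.5 and 90.3 CPM in LPA-to-FAKi libraries, against 174, 27.7 and 135 CPM in soft-to-soft and 142, 18.7 and 108 CPM in LPA-to-soft libraries (contrast -1.03 ± 0.20, adjusted p = 0.0473). NR4A2 had a contrast of -0.58 ± 0.11 and NR4A3, at 0.0593 to 0.542 CPM in stiff-to-soft and LPA-to-FAKi libraries, against 0.182 to 2.42 CPM in soft-to-soft and LPA-to-soft libraries, of -1.79 ± 0.29. CCNL1, a cyclin tied to RNA splicing, measured 217, 118 and 127 CPM in stiff-to-soft and 207, 97.8 and 129.6 CPM in LPA-to-FAKi libraries, against 378, 147 and 210.4 CPM in soft-to-soft and 339, 125 and 164 CPM in LPA-to-soft libraries and had a nearly even change in both comparisons (-0.62 ± 0.10 and -0.47 ± 0.10; adjusted p of the contrast 0.0147). MCL1, which blocks apoptosis, was called lower by -0.24 ± 0.045, the TGF-beta-induced factor KLF10 by -0.38 ± 0.067, the GTPase RHOB by -0.38 ± 0.073 and IER5 by -0.19 ± 0.037. The stiff and FAK estimates were -0.34 and -0.15 for MCL1 and -0.53 and -0.24 for KLF10. They were -0.48 and -0.28 for RHOB and -0.31 and -0.062 for IER5. The antiproliferative gene BTG2 measured 67.0, 17.8 and 53.2 CPM in stiff-to-soft and 38.1, 17.7 and 76.9 CPM in LPA-to-FAKi libraries, against 214, 32.2 and 145 CPM in soft-to-soft and 146, 20.1 and 85.8 CPM in LPA-to-soft libraries. Its contrast of -1.02 ± 0.21 missed the threshold (adjusted p = 0.0528). Among p53 targets, 24 tested, PMAIP1, which promotes apoptosis as NOXA, was the 1 called, beside 0.512% of all genes called lower. Its contrast was -0.44 ± 0.087.

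Many immediate early genes carry serum response elements, whose core is the CArG box bound by serum response factor. The box was searched in the same promoters on both strands as CC, then 6 bases of A or T, then GG. It was found in 1.29% of all of them and in 1.04% of those of tested genes. Of the 27 tested immediate early members that matched a promoter, 2 held it. Of the 7 called members that matched, 1 held it. That promoter is shown with its boxes in capitals.
EGR1 (chr5:138465229-138465528, plus strand): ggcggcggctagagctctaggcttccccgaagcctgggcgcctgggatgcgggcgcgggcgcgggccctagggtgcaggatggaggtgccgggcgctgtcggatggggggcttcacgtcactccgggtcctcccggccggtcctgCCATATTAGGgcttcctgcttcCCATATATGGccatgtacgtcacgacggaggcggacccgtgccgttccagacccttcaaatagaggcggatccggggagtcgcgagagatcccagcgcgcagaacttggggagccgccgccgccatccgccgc
The boxes of EGR1 lie at 2 positions, starting 105 and 83 bases before the gene start, and read as CArG boxes on either strand. SRF, the factor itself, measured 109, 95.3 and 124 CPM in stiff-to-soft and 101, 94.7 and 124 CPM in LPA-to-FAKi libraries, against 128, 110.2 and 154 CPM in soft-to-soft and 132, 99.6 and 136 CPM in LPA-to-soft libraries. It was lower in 6 of 6 within-number differences, with a contrast of -0.22 ± 0.046 (adjusted p = 0.0528). Of 24 tested SRF and MRTF target genes 0 were called by edgeR and 1 lower each by DESeq2 and limma voom, with a median of -0.012 and 2 lower at an unadjusted p under 0.05. CNN2, a calponin of that list, had a contrast of -0.13 ± 0.051 (adjusted p = 0.194).

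Genes of the Notch pathway also shared a direction. Notch receptors are cut after a neighbour's ligand binds, and the freed piece switches on HES and HEY repressors with the DNA-binding protein RBPJ. Of 20 tested, 17 were below 0, beside 50.5% of all genes, and 15 were below 0 in both comparisons, where 55.3% of all genes had one sign, in either direction. The median was -0.22, with -0.32 for stiff conditioning and -0.16 for FAK inhibition. The contrast called 4 lower and 0 higher, beside 0.512% of all genes called lower. It called between 0 (without replicate 3 of the stiff-to-soft or soft-to-soft condition) and 6 (without LPA-to-FAKi replicate 3) lower when 1 library was left out. HES1 measured 294, 189 and 379.9 CPM in stiff-to-soft and 227, 164 and 428 CPM in LPA-to-FAKi libraries, against 453, 254 and 638 CPM in soft-to-soft and 391, 218 and 447 CPM in LPA-to-soft libraries, and its contrast was -0.51 ± 0.079 (adjusted p = 0.026). HES1 also stands on the immediate early list, so the counts of both lists include it. HEY1 measured 3.96, 1.5 and 1.48 CPM in stiff-to-soft and 2.39, 0.911 and 1.36 CPM in LPA-to-FAKi libraries, against 8.3, 2.32 and 2.2 CPM in soft-to-soft and 6.38, 1.81 and 2.22 CPM in LPA-to-soft libraries (contrast -0.90 ± 0.14, adjusted p = 0.028). HES2 (-0.44 ± 0.065) and NRARP, a feedback inhibitor of the pathway (-0.53 ± 0.069), were called too. NRARP had -0.95 ± 0.10 in the stiff comparison and -0.12 ± 0.10 in the FAK comparison, and HES2 had -0.70 and -0.17. Each was higher in 1 of 6 within-number differences. The ligand JAG1 had 156 to 289 CPM in stiff-to-soft and LPA-to-FAKi libraries, against 201 to 377 CPM in soft-to-soft and LPA-to-soft libraries and a contrast of -0.34 ± 0.077 (adjusted p = 0.0641).

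The HES1 promoter is printed with the RBPJ core TGGGAA in capitals, searched on both strands.
HES1 (chr3:194135898-194136197, plus strand): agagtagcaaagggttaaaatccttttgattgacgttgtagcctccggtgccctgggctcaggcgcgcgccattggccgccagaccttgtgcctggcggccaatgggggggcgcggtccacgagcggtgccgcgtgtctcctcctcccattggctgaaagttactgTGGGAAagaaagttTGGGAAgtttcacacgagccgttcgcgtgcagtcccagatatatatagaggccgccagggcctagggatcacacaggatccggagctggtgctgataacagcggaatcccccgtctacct
The core lies at 2 positions, starting 84 and 70 bases before the gene start. It was shown because it held a match: the promoters of HES2 and NRARP, the other called members that matched a promoter, held none. So short a run is common. It was in 24% of all promoters, 21.9% of those of tested genes and 15% of those of genes called lower.

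**Figure D3:**
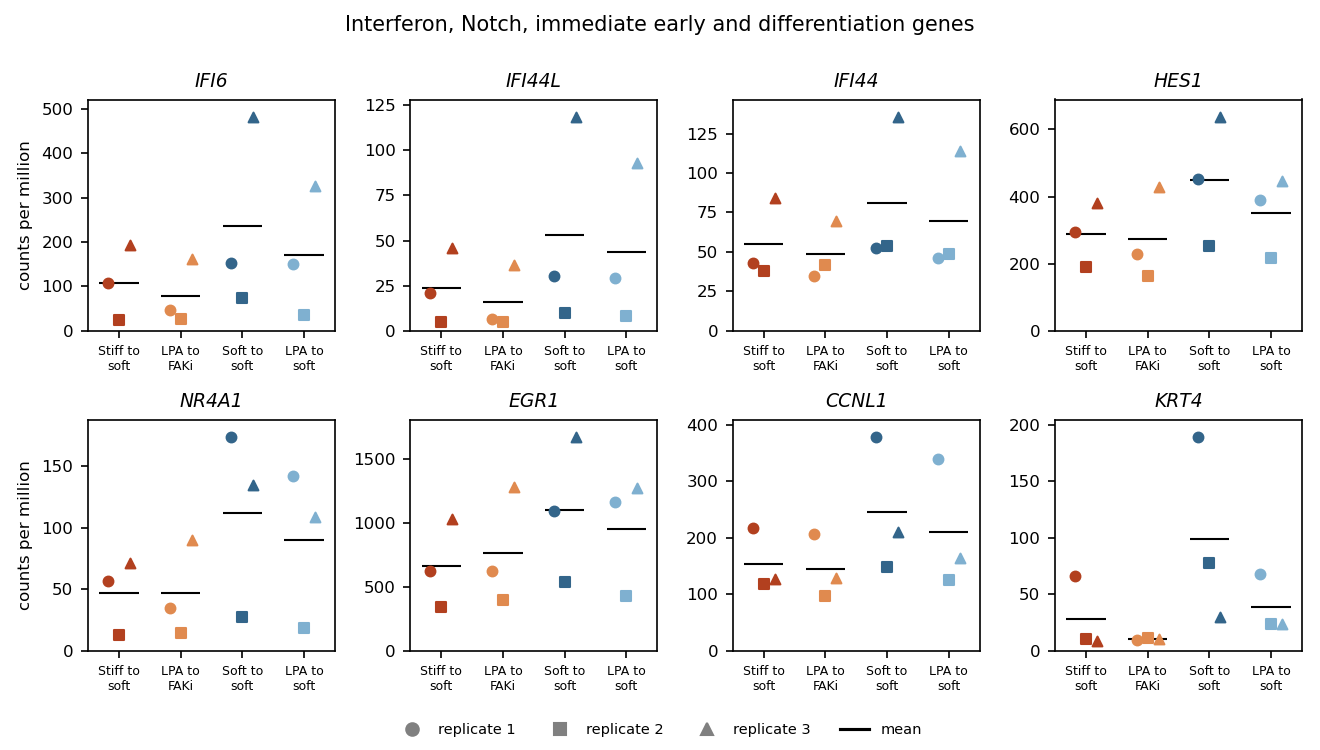
Level in CPM (y axis, from 0) of 8 genes called lower, in the 12 libraries by condition. Marker shape gives the replicate number and bars are means of 3 libraries. IFI6, IFI44L and IFI44 are highest in replicate 3 of each condition, and KRT4 in stiff-to-soft replicate 1 (66.6 CPM) stands far above the other stiff-to-soft and LPA-to-FAKi libraries.

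Genes of the basal layer leaned lower. Of 29 tested, 26 were below 0, beside 50.5% of all genes, and 16 were below 0 in both comparisons, where 55.3% of all genes had one sign, in either direction. The median was -0.22 (-0.30 for stiff conditioning and -0.095 for FAK inhibition). The contrast called 5 lower and 0 higher, beside 0.512% of all genes called lower. It called between 0 (without soft-to-soft replicate 3) and 11 (without soft-to-soft replicate 2 or LPA-to-FAKi replicate 3) lower when 1 library was left out. KRT15, a keratin of basal and stem-like cells, measured 554, 193 and 186 CPM in stiff-to-soft and 613, 209 and 224 CPM in LPA-to-FAKi libraries, against 827, 318 and 346 CPM in soft-to-soft and 724, 239.7 and 292 CPM in LPA-to-soft libraries. Replicate 1 was high in every condition, and the contrast of -0.50 ± 0.052 had an adjusted p of 0.00726. TP63, a transcription factor that stratified epithelium needs, had 250.3 to 411 CPM in stiff-to-soft and LPA-to-FAKi libraries, against 347 to 502 CPM in soft-to-soft and LPA-to-soft libraries, with -0.38 ± 0.094 and -0.32 ± 0.094 in the 2 comparisons and an adjusted p of 0.0459 for their average. The basal keratin KRT5 was called lower by -0.37 ± 0.071, SOX2, a factor of squamous stem cells, by -0.71 ± 0.11 and the receptor phosphatase PTPRZ1 by -1.21 ± 0.21. SOX2 had -1.14 in the stiff and -0.28 in the FAK comparison, and was higher in 1 of 6 within-number differences. In the same order KRT15 had -0.73 and -0.27, KRT5 -0.51 and -0.23, and PTPRZ1 -1.60 and -0.82. SNAI2, a repressor known from epithelial-mesenchymal transition and from basal keratinocytes, measured 56.2, 26.2 and 52.8 CPM in stiff-to-soft and 46.0, 26.1 and 49.9 CPM in LPA-to-FAKi libraries, against 78.2, 47.7 and 83.6 CPM in soft-to-soft and 74.4, 32.7 and 62.9 CPM in LPA-to-soft libraries. Its contrast was -0.56 ± 0.063 (adjusted p = 0.0107). SNAI2 was the 1 called gene of the 16 tested mesenchymal factors, beside 0.512% of all genes called lower. Of these factors 11 were above 0, with a median of 0.16, and 3 were higher and 1 lower at an unadjusted p under 0.05. The relative of SNAI2, SNAI1, had 0.46 ± 0.12 (adjusted p = 0.1).

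Of 30 tested junction genes, 17 were below 0, a share near that of all genes, and the median was -0.060. In both comparisons 12 were below 0 and 8 above, and the contrast called 2 lower and 0 higher, beside 0.512% of all genes called lower. The desmosomal cadherin DSC3 measured 109, 39.8 and 52.3 CPM in stiff-to-soft and 88.0, 44.8 and 53.5 CPM in LPA-to-FAKi libraries, against 165, 66.9 and 66.1 CPM in soft-to-soft and 147, 50.1 and 60.5 CPM in LPA-to-soft libraries (contrast -0.46 ± 0.079, adjusted p = 0.0369). DSG3, another desmosomal cadherin, was called lower by -0.34 ± 0.05, with -0.66 ± 0.071 under stiff conditioning and -0.011 ± 0.07 under FAK inhibition. The desmosomal linker DSP had -0.34 ± 0.073 (adjusted p = 0.0569), and the tight junction protein CGN had 0.38 ± 0.092 (adjusted p = 0.0766).

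The differentiation program did not move as 1 group. Of 55 tested genes 32 were below 0 over the 2 sides, beside 50.5% of all genes, with a median of -0.048. The median was -0.81 in the stiff comparison but 0.27 in the FAK comparison. The contrast called 5 lower and 0 higher, beside 0.512% of all genes called lower. It called 0 lower without replicate 3 of the stiff-to-soft or soft-to-soft condition or without LPA-to-soft replicate 2. Leaving out LPA-to-FAKi replicate 1 put 45 members below 0 and leaving out soft-to-soft replicate 2 put 22 there. ZNF750, a transcription factor of late differentiation, measured 89.6, 31.5 and 75.9 CPM in stiff-to-soft and 70.5, 38.1 and 101 CPM in LPA-to-FAKi libraries, against 199.9, 58.2 and 166 CPM in soft-to-soft and 154, 53.4 and 114 CPM in LPA-to-soft libraries. It was lower in 6 of 6 within-number differences, with a contrast of -0.82 ± 0.11 (adjusted p = 0.0149). KRT4, a keratin of oral suprabasal cells, measured 66.6, 10.5 and 8.46 CPM in stiff-to-soft and 9.93, 10.96 and 10.2 CPM in LPA-to-FAKi libraries, against 189, 77.6 and 29.9 CPM in soft-to-soft and 68.1, 24.1 and 23.3 CPM in LPA-to-soft libraries, and KRT1, of epidermal suprabasal cells, measured 38.8, 1.37 and 5.09 CPM in stiff-to-soft and 3.91, 1.58 and 2.75 CPM in LPA-to-FAKi libraries, against 114, 14.99 and 12.3 CPM in soft-to-soft and 45.5, 7.68 and 8.5 CPM in LPA-to-soft libraries. Both were low in LPA-to-FAKi libraries and variable in stiff-to-soft ones, and their contrasts were -1.77 ± 0.33 (adjusted p = 0.0436) and -2.15 ± 0.35 (adjusted p = 0.0311). KRT13, the partner of KRT4, was called by -0.73 ± 0.14, with -1.41 ± 0.20 under stiff conditioning and -0.042 ± 0.20 under FAK inhibition. The protease TMPRSS11D was called by -0.52 ± 0.10 although its comparisons had opposite signs (-1.22 ± 0.14 and 0.18 ± 0.14). KRT80 went the other way, with 332 to 698 CPM in stiff-to-soft and LPA-to-FAKi libraries, against 274 to 559 CPM in soft-to-soft and LPA-to-soft libraries and a contrast of 0.53 ± 0.12 (adjusted p = 0.0576).

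Keratins of simple epithelium and hair lay on the higher side. Of 10 tested, 7 were above 0, with a median of 0.36, 6 above 0 in both comparisons, and 1 called, KRT81, beside 0.253% of all genes called higher. KRT8 and KRT18, the pair of simple epithelium, were higher in 6 of 6 within-number differences. KRT8 measured 616, 1548 and 970.1 CPM in stiff-to-soft and 772, 1606 and 896 CPM in LPA-to-FAKi libraries, against 395, 1147 and 713 CPM in soft-to-soft and 372, 1443 and 810.1 CPM in LPA-to-soft libraries and had a contrast of 0.48 ± 0.10 (adjusted p = 0.0546), and KRT18 had 0.44 ± 0.089 (adjusted p = 0.0528). KRT86 is a close copy of KRT81 and had 1.02 ± 0.25 (adjusted p = 0.0821). Counts of such near-identical genes, and of KRT8, KRT18, FTH1 and FTL, which have many processed copies, are uncertain because reads can be split between them.

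**Figure D4:**
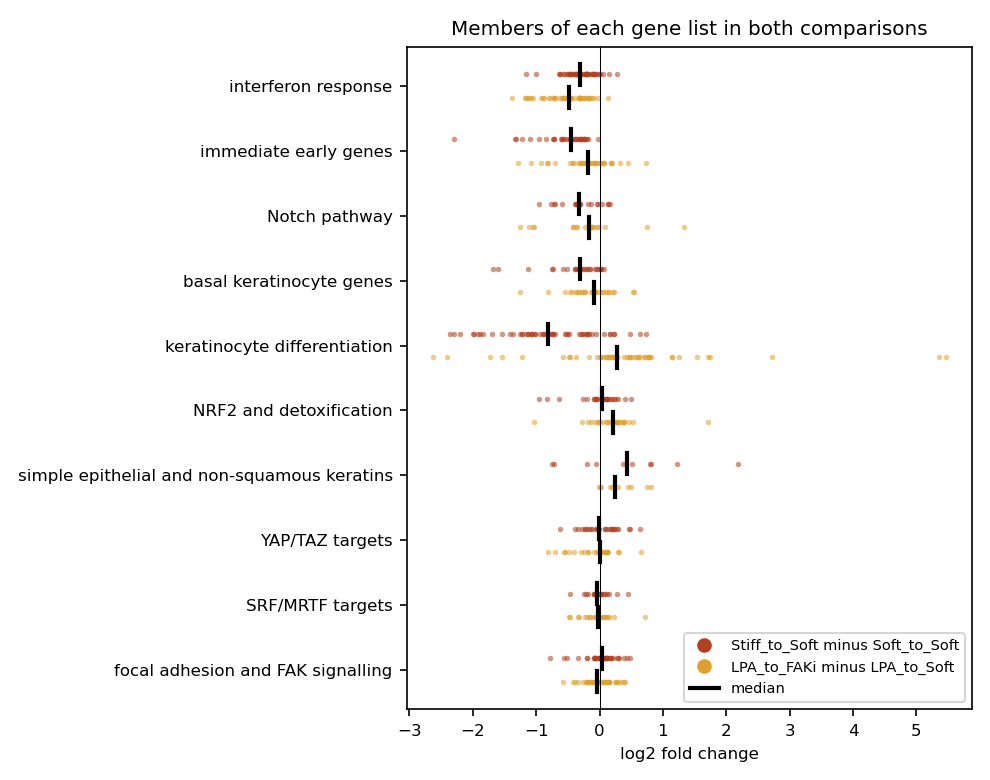
Log2 fold change (x axis) of each tested member of 10 gene lists (rows), red for stiff-to-soft minus soft-to-soft and yellow below it for LPA-to-FAKi minus LPA-to-soft. Black ticks are medians. The interferon list lies below 0 in both rows (medians -0.31 and -0.49), while the differentiation list lies below 0 in the stiff comparison (-0.81) and above 0 in the FAK comparison (0.27).

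Of 24 tested matrix proteases and plasminogen genes, ADAM8 was called higher and MMP10 and MMP1 lower. Of all genes 0.253% were called higher and 0.512% lower. In this list 14 were below 0, beside 50.5% of all genes, and the median was -0.047. MMP10, stromelysin-2, measured 137, 19.6 and 22.8 CPM in stiff-to-soft and 85.7, 13.4 and 27.8 CPM in LPA-to-FAKi libraries, against 459.8, 38.5 and 82.7 CPM in soft-to-soft and 223, 18.9 and 41.6 CPM in LPA-to-soft libraries. It was lower in 6 of 6 within-number differences (contrast -1.17 ± 0.14, adjusted p = 0.0147). The collagenase MMP1 was called by -0.72 ± 0.12, with -1.26 ± 0.17 for stiff conditioning and -0.17 ± 0.17 for FAK inhibition. Another collagenase, MMP13, had 23.4 to 139 CPM in stiff-to-soft and LPA-to-FAKi libraries, against 26.1 to 450.1 CPM in soft-to-soft and LPA-to-soft libraries and a contrast of -1.31 ± 0.31 (adjusted p = 0.073), and their inhibitor TIMP2 had 0.62 ± 0.14 (adjusted p = 0.0598). The cytokine IL36G, an interleukin of squamous epithelium, had 3.54 to 15.2 CPM in stiff-to-soft and LPA-to-FAKi libraries, against 4.38 to 34.0 CPM in soft-to-soft and LPA-to-soft libraries (contrast -0.85 ± 0.20, adjusted p = 0.0725).

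Of 28 tested genes of the NRF2 and detoxification list, 19 were above 0, where 50.5% of all genes were below 0, and the median was 0.082. In the model of 2 sides 11 were higher and 2 lower at an unadjusted p under 0.05. Of all 15437 genes 1307 were higher and 1224 lower at that p. The median was 0.046 in the stiff and 0.22 in the FAK comparison. In both comparisons 13 were above 0 and 4 below 0, where 55.3% of all genes had one sign, in either direction. HMOX1, heme oxygenase, was the 1 called, beside 0.253% of all genes called higher. It measured 16.2, 31.9 and 14.95 CPM in stiff-to-soft and 16.7, 21.8 and 12.5 CPM in LPA-to-FAKi libraries, against 13.3, 20.7 and 10.1 CPM in soft-to-soft and 12.3, 20.5 and 10.2 CPM in LPA-to-soft libraries, with a contrast of 0.39 ± 0.071 (adjusted p = 0.0426). The iron storage chains FTH1 and FTL had 0.40 ± 0.10 and 0.35 ± 0.081 (adjusted p = 0.0851 and 0.0719), both higher in 6 of 6 within-number differences. TALDO1, an enzyme of the pentose phosphate pathway, had 0.22 ± 0.048 (adjusted p = 0.0598).

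Other genes with the smallest p in the model of 2 sides belonged to none of the lists above. MALAT1, a nuclear long noncoding RNA, measured 251, 126 and 95.1 CPM in stiff-to-soft and 247, 90.4 and 69.4 CPM in LPA-to-FAKi libraries, against 427, 183 and 149 CPM in soft-to-soft and 433, 133 and 110.1 CPM in LPA-to-soft libraries. The difference was nearly equal in both comparisons (-0.64 ± 0.11 and -0.69 ± 0.11), and the contrast had an adjusted p of 0.0147. PRODH, the enzyme that starts proline breakdown, measured 29.2, 8.19 and 18.6 CPM in stiff-to-soft and 14.3, 6.15 and 17.4 CPM in LPA-to-FAKi libraries, against 53.6, 14.7 and 32.4 CPM in soft-to-soft and 43.8, 12.3 and 24.2 CPM in LPA-to-soft libraries (contrast -0.92 ± 0.12, adjusted p = 0.0147). FOXO1, a transcription factor held out of the nucleus by AKT, was called lower by -0.35 ± 0.052, the phosphatase PTP4A1 by -0.25 ± 0.041 and the endosomal protein PLEKHF2 by -0.52 ± 0.089. DUOX2, an oxidase that makes hydrogen peroxide, was called lower by -0.89 ± 0.15, the scaffold gene FRMD4B by -0.44 ± 0.069 and MCC by -0.41 ± 0.072. PINK1, a kinase that marks damaged mitochondria, had 0.34 ± 0.068 and missed the threshold (adjusted p = 0.0518).

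Lists that stand for matrix sensing itself (YAP/TAZ targets, focal adhesion and FAK signalling genes, and matrix genes) showed no shared shift. Of 29 tested YAP/TAZ targets 0 were called (DESeq2 called 1 lower and limma voom 0), 14 were below 0, the median was 0.0028, and 3 were higher and 2 lower at an unadjusted p under 0.05. CTGF, a secreted matrix protein, measured 80.9, 85.1 and 282 CPM in stiff-to-soft and 60.1, 58.8 and 231 CPM in LPA-to-FAKi libraries, against 122, 109 and 329 CPM in soft-to-soft and 176, 89.1 and 269 CPM in LPA-to-soft libraries, and its contrast of -0.60 ± 0.14 did not pass (adjusted p = 0.0748). The receptor kinase AXL had 0.29 ± 0.11 (adjusted p = 0.189). Of 44 tested focal adhesion and FAK signalling genes 0 were called by edgeR, DESeq2 or limma voom, 19 were below 0, the median was 0.014, and 3 were higher and 4 lower at an unadjusted p under 0.05. LIMS1, an adaptor of integrin adhesions, had -0.14 ± 0.044 (adjusted p = 0.133), and ITGB5, an integrin chain, 0.29 ± 0.10 (adjusted p = 0.166). The 42 tested matrix genes had a median of -0.059 and 0 called (DESeq2 called 1 higher), with 0.11 in the stiff comparison and -0.15 in the FAK comparison. Among 22 ERK feedback genes and EGFR ligands 0 were called (DESeq2 called 1 higher), and DUSP4, an ERK phosphatase, had 113 to 207 CPM in stiff-to-soft and LPA-to-FAKi libraries, against 66.5 to 163 CPM in soft-to-soft and LPA-to-soft libraries with a contrast of 0.52 ± 0.15 (adjusted p = 0.119). The 22 TGF-beta and BMP targets leaned lower, with medians of -0.17 in the stiff and -0.19 in the FAK comparison. Of them 10 were below 0 in both comparisons and 2 above 0 in both. KLF10 was the 1 called, beside 0.512% of all genes called lower. DESeq2 called 1 higher and 5 lower, and limma voom 1 higher and 1 lower. At an unadjusted p under 0.05 in the model of 2 sides, 2 were higher and 9 lower, beside 1307 and 1224 of all 15437 genes. ID2, a BMP-induced inhibitor of transcription, had -0.40 ± 0.10 (adjusted p = 0.076). S phase genes (36 tested, 29 above 0, median 0.083) and G2 and M phase genes (34 tested, 29 below 0, median -0.088) had medians of opposite sign with 0 called in each (DESeq2 called 1 S phase gene higher). Of all genes 50.5% were below 0. The S phase median was -0.0067 in the stiff and 0.16 in the FAK comparison, with 14 above 0 and 2 below 0 in both. The G2 and M phase median was -0.019 and -0.14, with 21 below 0 and 2 above 0 in both. Of S phase genes 1 was higher, and of G2 and M phase genes 1 was lower, at an unadjusted p under 0.05.

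The difference between the 2 comparisons was tested in the same model, and 7 genes passed (0.0453%). Leaving out 1 library gave 2 (without replicate 3 of the soft-to-soft or LPA-to-soft condition, or stiff-to-soft replicate 2) to 37 (without soft-to-soft replicate 1). It has the same numerator as the contrast of the series' memory classes, so a gene that differs here also differs between the averages of the classes. Each condition need not follow its class. FN1, fibronectin, measured 90.4, 173 and 248 CPM in stiff-to-soft and 45.4, 90.1 and 155 CPM in LPA-to-FAKi libraries, against 50.6, 75.8 and 124 CPM in soft-to-soft and 85.2, 133 and 187 CPM in LPA-to-soft libraries. Stiff conditioning gave 1.01 ± 0.10 and FAK inhibition -0.58 ± 0.10, a difference of 1.58 ± 0.15 (adjusted p = 0.00387). TNS3, a tensin of integrin adhesions, had the same pattern (0.30 ± 0.066 and -0.42 ± 0.066; adjusted p of the difference 0.0295). The other 5 were lower under stiff conditioning and, by estimate, higher under FAK inhibition. THBD, thrombomodulin, had -0.48 ± 0.054 and 0.31 ± 0.053 (adjusted p = 0.00387). Its means were close in LPA-to-soft (91.0 CPM) and soft-to-soft cells (91.7 CPM), which belong to different classes. Stiff-to-soft cells averaged 65.8 CPM and LPA-to-FAKi cells 112 CPM. The EGFR ligands EREG (-0.48 ± 0.067 and 0.30 ± 0.067) and HBEGF (-0.41 ± 0.071 and 0.34 ± 0.07) followed with adjusted p of 0.0246 and 0.0295. SPRR2A, a cornified envelope protein with near-identical relatives, differed by -1.63 ± 0.22 and TMPRSS11D by -1.40 ± 0.20 (adjusted p = 0.0295 and 0.0398). Within the 118 called genes, TMPRSS11D was the 1 that passed this test, but 42 of the 118 had an unadjusted p under 0.05 in it, beside 2060 of all 15437 genes. DSG3, NRARP and KLF5 lay just past the threshold (adjusted p = 0.0602, 0.0649 and 0.0691).

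**Figure D5:**
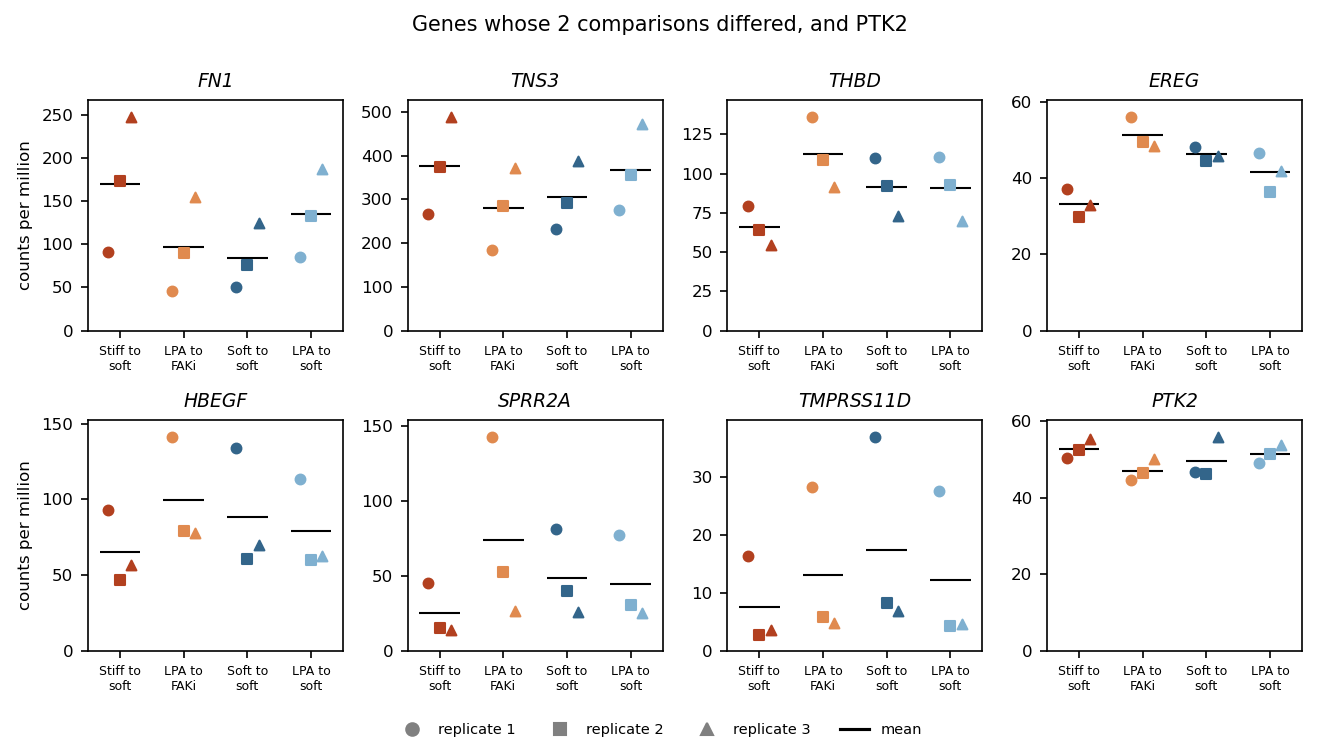
Level in CPM (y axis, from 0) in the 12 libraries by condition of the 7 genes whose comparisons differed, and of PTK2. Marker shape gives the replicate number and bars are means of 3 libraries. FN1 is high in stiff-to-soft and LPA-to-soft cells, THBD is high in LPA-to-FAKi and low in stiff-to-soft cells, and PTK2 lies between 44.8 and 56.0 CPM everywhere.

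The third way to split the 4 conditions sets the LPA-conditioned cells against the others. It called 1 gene (0.00648%), THBD, higher by 0.37 on the log2 scale in LPA-conditioned cells (adjusted p = 0.0119). These 3 splits share all 12 libraries and 1 model, and the difference between their counts was not tested.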

How the data were processed

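RNA of 12 Cal27 libraries was measured, 3 in each of 4 conditions taken from the sample labels, which also give the replicate numbers. Per the labels' protocols, libraries came from a stranded TruSeq kit. The build hg19 and the tools cutadapt, FastQC, STAR, HTSeq and DESeq2, with no version, are listed in the submitters' processing notes. How strand was treated and which annotation served is not given in the sources used here. Whole-number read counts per gene symbol were deposited by the authors and used unchanged. The authors also deposited log2 values, which were the scaled counts of each library plus 1 on that scale and were not tested. Of 25382 symbols, 5880 had no count. Symbols turned into dates numbered 28 (0.178% of counts), and 1 of them was among the called genes and is not named. No pair of libraries was identical.

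Genes were tested with edgeR 4.0.16 (R 4.3.3), its quasi-likelihood F test, TMM scaling, and its low-count filter by condition, which left 15437 genes. The replicate number was a block. Libraries of the same number correlated after condition means were removed (r 0.312 to 0.659 over 18 pairs, against -0.517 to 0.037 over 36 pairs of different numbers), and all 12 libraries correlated best with their own number. By the rule used, this pairs the samples. Adjusted p are Benjamini-Hochberg values over all genes tested. Log2 CPM used a prior count of 2. Alternatives were DESeq2 1.42.0, limma voom 3.58.1, other scaling and filtering, no block, and libraries left out. The script was tested on simulated data.

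The samples, gene lists, motifs and tests were chosen with earlier results of these data known, and the mitochondrial names were adapted to the file. Genes were named by the smallest p in the model of 2 sides (15 each way), by the larger p of the 2 comparisons with one sign (10 each way), by the difference (6 each way; those past the threshold are given), up to 4 per list, and PTK2, leaving out dates and genes with a mean under 1 CPM in every condition. All list members called by the 4-condition contrast, and ADAMTS9 and KCNN4, were added after their values were seen. RefSeq promoters matched 10924 tested symbols. No genome of the build hg19 was used, and no coordinates of it are given.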

Additional observations from a re-analysis of the deposited data

Results flagged for a closer look

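In sets of 6 libraries (1 side each), the gap between an extreme library and its nearest neighbour was checked against the range for list means and named genes, and chance alone flags about 1 in 20 sets. Of 306 sets 5 stood out. The mean log2 CPM of hypoxia and glycolysis genes was 6.78 in LPA-to-soft replicate 1, against 6.002 to 6.27 in the other soft-to-soft and LPA-to-soft libraries. That of the fibroblast markers was -1.01 in LPA-to-FAKi replicate 1, against 0.30 to 0.90 in the others of its side, at levels near the detection limit. Stiff-to-soft replicate 1 stood apart 3 times. KRT4 was at 6.06 log2 CPM there, against 3.08 to 3.46 in the others of its side. TALDO1 was at 8.15, against 8.44 to 8.58, and FTL at 8.87, against 9.54 to 9.81.

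The stiff comparison and the FAK comparison differed by the test of the difference itself for 7 genes. Stiff minus FAK was 1.58 for FN1 and 0.71 for TNS3, and -0.78 for THBD, -0.78 for EREG, -0.75 for HBEGF, -1.63 for SPRR2A and -1.40 for TMPRSS11D on the log2 scale.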

How the results depend on the processing

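Counts of calls moved widely. In the model of 2 sides, 0 genes passed with RLE size factors, limma voom, without the replicate block, without both soft-to-soft replicates 1 and 2 and with the other 10 libraries halved, but 551 passed with DESeq2 and 188 without the low-count filter, and the contrast of 4 conditions, also with the replicate block, called 118. That contrast called 897 with DESeq2, 292 with limma voom, 253 without the filter, 134 with RLE size factors and 141 with 10 libraries halved, against 0 without the replicate block and 0 without both soft-to-soft replicates 1 and 2. Genes called alike in both comparisons numbered 51, 4 and 2 with DESeq2, limma voom and no filter, and those called in the difference 346, 32 and 41, against 0 without the block and 0 without both soft-to-soft replicates. With 1 library or 1 replicate number left out, the ranges were 0 to 10 for 2 sides, 1 to 519 for the contrast, 0 to 5 for both comparisons and 0 (without replicate number 2) to 37 for the difference. The cause was not tested.

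Of 2024 single-gene fits in the model of 2 sides, 2 reversed, both of PTK2, which ranged from -0.050 to 0.0094 as libraries or numbers were left out. None of the 1606 fits of 73 genes in the contrast and none of the 154 fits of 7 genes in the difference changed sign, and all 118 called genes kept theirs under every alternative. The genes of the contrast and of the difference were picked from these same libraries, so a kept sign is largely fixed by the selection. The median of all genes stayed within 0.02 of 0 (log2) under every scaling. The count of differentiation genes below 0 did move, between 21 (without replicate number 2) and 45 (without LPA-to-FAKi replicate 1) against 32. The list counts were added after the data were seen.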

Other observations

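Lists not yet described held few calls. None of the 39 tested hypoxia and glycolysis genes was called by edgeR. DESeq2 called 1 higher and 1 lower, and limma voom 1 higher and 0 lower. At an unadjusted p under 0.05 in the model of 2 sides, 1 was higher and 2 lower. Over the 2 sides 31 were below 0, beside 50.5% of all genes, with a median of -0.098. The median was 0.041 in the stiff and -0.16 in the FAK comparison, and 10 were below 0 and 4 above 0 in both. The list's mean was flagged above as apart in LPA-to-soft replicate 1. P4HA2, a prolyl hydroxylase of collagen, had 62.4 to 80.8 CPM in stiff-to-soft and LPA-to-FAKi libraries, against 51.7 to 63.0 CPM in soft-to-soft and LPA-to-soft libraries and a contrast of 0.27 ± 0.06 (adjusted p = 0.0642). Cholesterol synthesis genes (25 tested, 0 called by edgeR, DESeq2 or limma voom, 1 lower at an unadjusted p under 0.05) had a median of 0.045 in the stiff comparison and -0.22 in the FAK comparison. Heat shock genes (17 tested, 0 called by any of these tools, 3 higher at an unadjusted p under 0.05) had 14 above 0 and a median of 0.062. Of the 29 lysosome and proton pump genes 0 were called by edgeR, 4 higher and 3 lower by DESeq2, and 0 higher and 1 lower by limma voom, and 6 were higher and 4 lower at an unadjusted p under 0.05.

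CYP4B1 and SEMG1, chosen after their values were seen, were called lower at levels near 1 CPM. CYP4B1, a cytochrome P450, had 0.114 to 1.77 CPM in stiff-to-soft and LPA-to-FAKi libraries, against 0.366 to 2.46 CPM in soft-to-soft and LPA-to-soft libraries, with -0.17 ± 0.38 in the stiff comparison and -2.69 ± 0.42 in the FAK comparison, and it was the 1 called gene whose p in the model of 2 sides was above 0.05 (0.134). SEMG1, a semen coagulum protein, had 0.0488 to 2.64 CPM in stiff-to-soft and LPA-to-FAKi libraries, against 0.24 to 2.88 CPM in soft-to-soft and LPA-to-soft libraries and a contrast of -1.42 ± 0.25 (adjusted p = 0.0377).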
